A study of Mus musculus with 2 samples.

Results

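The core circadian clock genes are the 10 genes whose products form the transcription feedback loop of the mammalian clock: Arntl (also called Bmal1), Clock, Dbp, Per1, Per2, Per3, Cry1, Cry2, Nr1d1 and Nr1d2. They were taken by name from the mouse annotation GENCODE M21, in which 10 of 10 were found among 21951 protein-coding genes. Their chromatin was read in DNase-seq of the urinary bladder, an assay in which an enzyme cuts DNA that is open and sequencing counts the cuts. The study holds 1 group and no other condition: male B6CASTF1/J mice, the F1 hybrid of C57BL/6J and CAST/EiJ, 36 days old, with 1 library from each of 2 animals, called replicate 1 and replicate 2 here as in the labels. No genotype other than the hybrid cross and no treatment is named, and the hour of the day at which tissue was taken is not given in the sources used here. Whole tissue was used, so a site that is open in fewer cells and a site that is less open in each cell cannot be told apart.

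The clock runs as a loop in which ARNTL and CLOCK pair up, bind the E-box word CACGTG or the related E′-box CACGTT in DNA, and switch on the Per, Cry, Nr1d and Dbp genes. The PER and CRY proteins then gather and block ARNTL and CLOCK, while NR1D1 and NR1D2 (REV-ERB alpha and beta) repress Arntl and other genes through the RRE, searched here as TAGGTCA and TGGGTCA. DBP, an output of the loop, activates genes through the D-box, searched here as TTATGTAA, TTACGTAA, TTACATAA and TTATATAA. Clocks of this kind run in most tissues, the bladder among them. Arntl, Clock and Dbp are grouped below as activators, and the Per, Cry and Nr1d genes as repressors.

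The sequences below show where such words lay in open chromatin of the clock genes and under a footprint, a stretch of a few bases within an open site that is shielded from cutting; the Arntl sequence is the exception. All E-boxes and E′-boxes that a footprint covered in both libraries are shown, together with the D-boxes that a footprint covered in at least 1 library. The RRE near the Arntl start lay in a gap just past the taller open site of that start, where footprints were not read. It is shown because Arntl is the known target of the NR1D repressors. A footprint was counted as covering a word when the footprint, extended by 5 bases on each side, held all of its letters. Among further words in these sequences, the AACGTG of Cry1 was covered in neither library. The second CACGTG of the first Nr1d1 sequence was covered in replicate 2 alone. Each sequence was read from the GRCm38.p6 assembly, which has the coordinates of mm10, and runs 5′ to 3′ on the strand of its gene; capitals mark the E-box, E′-box, D-box and RRE words, and AACGTG is the E′-box read on the other strand.
Per1, chr11:69094856-69094915, plus strand: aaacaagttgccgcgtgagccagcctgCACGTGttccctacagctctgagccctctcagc
Per1, chr11:69095040-69095099, plus strand: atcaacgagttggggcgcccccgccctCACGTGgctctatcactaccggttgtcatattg
Per2, chr1:91459302-91459331, minus strand: agcgcgcgcggtCACGTTttccactatgtg
Per2, chr1:91459416-91459475, minus strand: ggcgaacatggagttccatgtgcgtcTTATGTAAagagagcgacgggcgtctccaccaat
Per3, chr4:151044790-151044849, minus strand: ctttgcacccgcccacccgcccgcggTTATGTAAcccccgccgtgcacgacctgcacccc
Cry1, chr10:85185082-85185141, minus strand: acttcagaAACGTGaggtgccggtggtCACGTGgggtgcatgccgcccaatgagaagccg
Cry2, chr2:92434203-92434262, minus strand: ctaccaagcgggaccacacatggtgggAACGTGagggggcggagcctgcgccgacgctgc
Cry2, chr2:92423893-92423952, minus strand: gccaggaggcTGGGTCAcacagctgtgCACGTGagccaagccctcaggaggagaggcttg
Nr1d1, chr11:98773847-98773906, minus strand: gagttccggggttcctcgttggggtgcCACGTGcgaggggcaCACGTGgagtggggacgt
Nr1d1, chr11:98774127-98774186, minus strand: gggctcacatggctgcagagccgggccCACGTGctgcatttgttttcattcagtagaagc
Nr1d1, chr11:98783515-98783574, minus strand: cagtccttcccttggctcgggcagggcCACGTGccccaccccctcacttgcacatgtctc
Nr1d2, chr14:18238498-18238557, minus strand: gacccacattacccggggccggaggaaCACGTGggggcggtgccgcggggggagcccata
Nr1d2, chr14:18238577-18238636, minus strand: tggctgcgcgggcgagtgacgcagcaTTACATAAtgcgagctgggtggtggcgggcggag
Dbp, chr7:45707685-45707744, plus strand: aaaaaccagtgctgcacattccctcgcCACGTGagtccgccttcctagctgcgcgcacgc
Dbp, chr7:45707747-45707806, plus strand: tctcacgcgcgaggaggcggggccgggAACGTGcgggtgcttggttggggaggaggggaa
Arntl, chr7:113207530-113207559, plus strand: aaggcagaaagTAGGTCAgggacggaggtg

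The shorter deposited peak list held 38674 peaks for replicate 1 and 47661 for replicate 2. Overlapping peaks were merged into 51228 sites, and 31612 of them, called shared, had a peak in each library. Peak heights were the authors' own signal values, and the absolute sequencing depth is unknown. One step of height was 0.0113 for replicate 1 and 0.00893 for replicate 2. A start peak is one that overlaps the 500 bases on either side of an annotated transcription start. Because height scales differ between libraries, each gene's strongest start peak was also given a percentile, its rank among all 19588 start peaks of replicate 1 or 20332 of replicate 2. Of 6 urothelial markers, 5 (Upk1a, Upk1b, Upk2, Upk3a, Grhl2) had start peaks in both libraries and Krt5 in replicate 2 alone. Smooth muscle markers were less complete: Myh11 and Mylk had start peaks in both libraries, while Acta2, Actg2, Des and Tagln had none in either. Start peaks in both libraries were also found for 2 of 3 fibroblast markers, 1 of 3 endothelial markers, 2 of 3 immune markers and, of 5 markers of other tissues, for Gfap, whereas Pecam1, Cdh5, Ptprc and Dcn had none in either library. The part of this mixture in the clock gene values was not tested.

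All 10 clock genes had an open transcription start in both animals, and most of these starts were among the strongest in the tissue. The share of all protein-coding genes with a start peak in both libraries was 56.2%. The strongest start peak lay above percentile 90 in both libraries for 8 of 10 clock genes, against 8.05% of protein-coding genes, and above percentile 75 for 9 of 10, against 21.4%. The 10 strongest start peaks had a median height of 5.20 in replicate 1, against 2.00 over all start peaks, and of 5.84 in replicate 2, against 1.78. All start peaks include weaker peaks of the same genes, so the strongest peak of a gene tends to rank higher. Median percentiles of the strongest start peak were 94.4 and 96.6 for the clock genes. For protein-coding genes with start peaks in both libraries they were 69.3 and 70.6. The exceptions were Arntl and Clock, the loop's activating pair, which had the lowest start peaks of the 10 genes in each library.

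**Figure D1:**
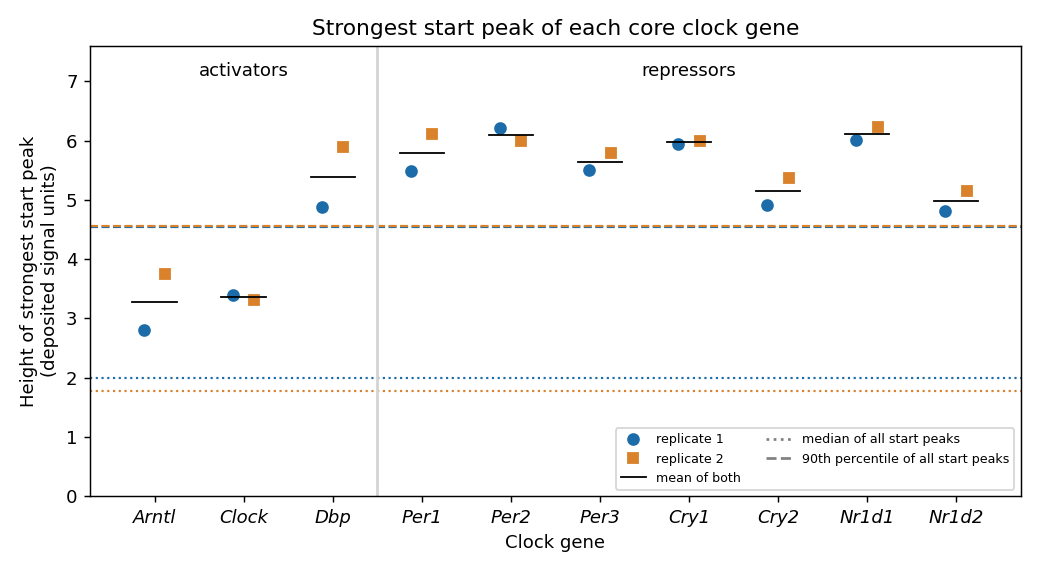
Height of the strongest start peak of each clock gene in deposited signal units (vertical axis), with a circle for replicate 1, a square for replicate 2 and a bar for their mean. Arntl and Clock lie between 2.80 and 3.76, below the dashed lines at the 90th percentile of all start peaks (4.55 and 4.56), and the other 8 genes lie above them.

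Arntl encodes the obligate partner of CLOCK and is the single core gene whose loss alone stops the rhythm in mice. Its strongest start peak (chr7:113207021-113207540 in replicate 1, chr7:113207041-113207460 in replicate 2) had a height of 2.80 in replicate 1 and 3.76 in replicate 2. These ranked at percentiles 66.0 and 82.2, a mean of 74.1 ± 11.5 (SD, n = 2), the widest gap between the animals among the 10 genes. The peak held 8 footprints in replicate 1 and 7 in replicate 2. An RRE, TAGGTCA, lay at chr7:113207541-113207547 in the untranslated part of the first exon, 76 bases after the gene start. It began 1 base past the end of the replicate 1 peak and farther from that of replicate 2, which ended at chr7:113207460. Beyond the RRE lay a second start site, chr7:113207701-113207920, with a peak in replicate 1 alone (height 1.30). In replicate 2 all 220 bases of that site had a deposited false discovery rate of at most 0.001. The RRE thus lay between these open stretches.

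Clock encodes the other protein of the activating pair. Its strongest start peak (chr5:76304681-76304960), on a start region shared with the divergent gene model Gm7467, had heights of 3.40 and 3.31. Percentiles were 75.9 and 76.3, with a mean of 76.1 ± 0.28 (SD, n = 2). The Clock window held 1 distal site with a peak in each library, 41538 bases upstream of the gene. The highest peak of its window belonged in both libraries to the start of Tmem165, a Golgi membrane protein gene, with heights of 3.63 and 4.18.

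Dbp, the D-box activator, differed from Arntl and Clock in the strength of its start. Its strongest start peak (chr7:45704761-45705240) had heights of 4.88 and 5.89, at percentiles 92.7 and 96.8 (94.7 ± 2.90, SD, n = 2). A pair of RREs lay in it, 231 and 186 bases upstream of the gene start, and the nearer one was covered by a footprint in replicate 2 only. The short Dbp gene held 3 start sites in both libraries. Of these, the site at chr7:45707621-45707860, counted with the starts because a retained-intron transcript is annotated to begin close by inside the gene, was nearly as high as the promoter in replicate 1, with 4.56 in replicate 1 and 4.55 in replicate 2. That internal site carried 2 E-boxes and 1 E′-box, and the first E-box and the E′-box, both shown above, were covered by footprints in both libraries.

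The Period genes encode the proteins that carry the repression of the loop, and all 3 had strong starts in both animals. The strongest start peak of Per1, the member best known for rapid induction by light and hormones, had heights of 5.49 and 6.11, at percentiles 95.9 and 97.6 (96.7 ± 1.19, SD, n = 2). It held the pair of upstream E-boxes printed above, 332 and 148 bases before the gene start, and footprints of both libraries covered both of them. The E-box at 148 bases counted as covered only through the extension of footprints by 5 bases. Per2 had heights of 6.21 and 5.99, at percentiles 98.2 and 97.1 (97.7 ± 0.73), the highest of the 10 genes in replicate 1. It held no CACGTG. Its E′-box, 8 bases after the gene start, was covered in both libraries, and its D-box, 121 bases upstream, in replicate 2 alone. Per3 had heights of 5.51 and 5.79, at percentiles 96.0 and 96.5 (96.2 ± 0.34), and 2 D-boxes at 154 and 201 bases upstream. The nearer D-box of Per3 was covered in replicate 2 only and the farther one in neither library, and no E-box or E′-box lay in any of its sites.

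The Cryptochromes encode the partners of the PER proteins. Cry1 had start peak heights of 5.94 and 6.00, at percentiles 97.5 and 97.2 (97.3 ± 0.21, SD, n = 2). Its E-box, 47 bases upstream, was covered by footprints in both libraries, and the E′-box 66 bases upstream was covered in neither. Cry2 had heights of 4.92 and 5.37, at percentiles 93.0 and 94.7 (93.9 ± 1.27). The Cry2 start held an E′-box 189 bases upstream that was covered in both libraries. The E-boxes of Cry2 lay instead in a site of its intron (chr2:92423821-92424040), 10121 and 10174 bases into the gene, where the heights were 3.21 and 2.82. The nearer of these E-boxes and an RRE 10104 bases into the gene, in the same printed window, were covered in both libraries.

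The Nr1d genes encode nuclear receptors that repress Arntl. Nr1d1 had start peak heights of 6.02 and 6.22, at percentiles 97.7 and 97.8 (97.8 ± 0.063, SD, n = 2), the steadiest rank of the 10 genes and the highest in replicate 2. Nr1d2 had heights of 4.82 and 5.15, at percentiles 92.3 and 93.7 (93.0 ± 0.97). A second peak in reach of the Nr1d2 starts, in an intron (chr14:18238341-18238740), was close behind, with 4.56 and 5.08. The words of Nr1d2 lay in that second site rather than at the start itself: 3 E-boxes, at 452, 555 and 600 bases into the gene, and the D-box TTACATAA at 521 bases. The E-box at 600 bases and the D-box were covered by footprints in both libraries, the E-box at 452 bases in replicate 1 alone and the one at 555 bases in neither.

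Ordered by mean percentile, the genes ran Nr1d1, Per2, Cry1, Per1, Per3, Dbp, Cry2, Nr1d2, Clock and Arntl. From Nr1d1 down to Nr1d2, the range of each gene over the 2 libraries overlapped that of the next. Both genes of a pair were read in the same libraries, so overlap does not show that neighbours were alike. Cry2, for example, was above Nr1d2 in each library, at 93.0 against 92.3 and 94.7 against 93.7. The single step in the order without overlap was from Nr1d2, at percentiles 92.3 and 93.7, to Clock, at 75.9 and 76.3. Clock and Arntl overlapped. Activators had lower start peaks than repressors in both libraries, with median heights of 3.40 against 5.51 in replicate 1 and 3.76 against 5.99 in replicate 2. In mean percentile, activators minus repressors came to -17.6 points in replicate 1 and -11.3 in replicate 2 (-14.4 ± 4.48, SD, n = 2). Dbp stood among the repressors: its heights overlapped theirs, and with Dbp left out the difference was -24.8 and -17.1 points (-21.0 ± 5.47). On the 3 activators and 7 repressors no test was made, since genes of 1 tissue are not replicates of a condition.

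The clock gene starts resembled other strong starts in base composition. Over 300 bases centred on each start site, GC content had a median of 67.2% for the 10 genes (range 55.3% to 73.7%), against 64.7% for all shared start sites and 65.3% for those with a mean height over 3. The ratio of observed to expected CpG dinucleotides had a median of 0.857, from 0.571 at Per1 to 1.08 at Per2, against 0.800 over all shared start sites and 0.865 over the tall ones. More than 1 start peak per gene was common: Clock, Dbp, Per1 and Cry1 had at least 3 start peaks in both libraries, against 4.27% of protein-coding genes. Neighbouring peaks can lie at 1 start, and these genes have several annotated starts.

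Within the gene bodies and the 50 kb on either side, the 10 clock genes had 135 sites. Peaks of both libraries were found at 97 of them, which is 71.9%, against 61.7% of all sites. Sites at a clock gene's own starts numbered 20 (18 in both libraries), sites at starts of other genes 42 (31 in both), and sites away from any start, called distal, 73 (48 in both). The clock gene windows held a median of 4 shared distal sites, while the median protein-coding gene had 1. Per 100 kb of window, the median was 2.96 for the clock genes and 0.845 for protein-coding genes, and 8.61% of protein-coding genes exceeded 2.96. These references take in all protein-coding genes, of which only 56.2% had a start peak in both libraries, as all 10 clock genes did. The density was above the median of protein-coding genes for 8 of 10 clock genes, with Clock and Nr1d2 below it.

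**Figure D2:**
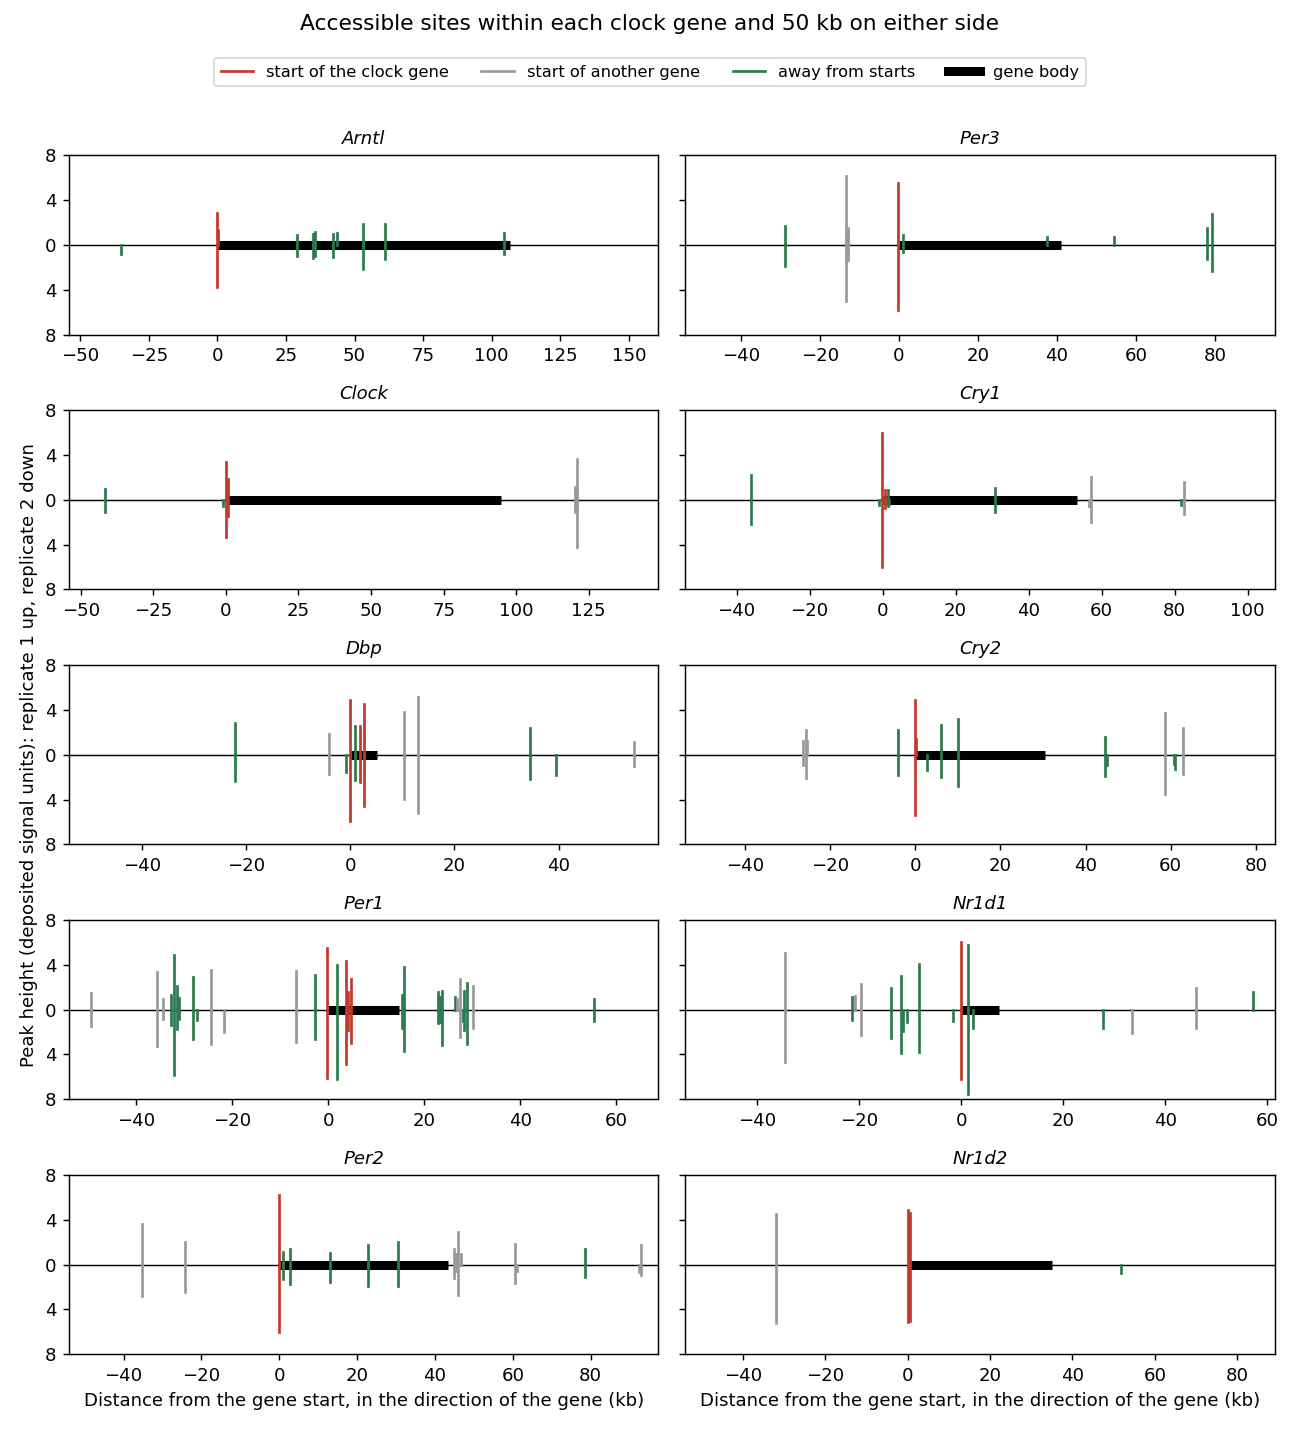
Peak heights in deposited signal units at each site of the 10 clock gene windows, replicate 1 upward and replicate 2 downward, against distance from the gene start in kb along the gene; red marks starts of the clock gene, grey starts of other genes, green sites away from starts, and the black bar the gene body. Per1 has 15 green sites present in both libraries and Nr1d2 has 0.

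The distal sites were spread unevenly over the clock genes. Per1 had 15 that were present in both libraries, a density of 13.1 per 100 kb, at percentile 99.98 of all protein-coding genes. The highest of them by mean height, at chr11:69063021-69063240 and 32087 bases upstream, had heights of 4.89 and 5.81, although in replicate 2 a Per1 intron site described below was higher, at 6.19. It stood in a group of 4 such sites from 31147 to 32807 bases upstream, whose other members had heights between 0.848 and 2.12. Beyond the 3′ end of Per1, a site 15713 bases from the gene start had heights of 3.80 and 3.69. The Per1 window also held 9 sites at the starts of neighbours, and which gene a distal site acts on was not tested.

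Arntl had 7 shared distal sites, all inside the gene. They were low, from 0.896 to 1.86 in replicate 1 and from 0.848 to 2.15 in replicate 2, and the highest lay 53185 bases into the gene (chr7:113260481-113260820). A site 35430 bases into Arntl held an RRE, which a footprint covered in replicate 2 only. Per2 had 6 shared distal sites, 5 of them in introns with heights of 1.04 to 2.04 and 1.27 to 1.91. Per3, Cry1 and Cry2 had 4, 3 and 4.

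Nr1d1 had 5 shared distal sites, several of them tall. Upstream sites at 8157, 11727 and 13687 bases before the start had heights of 4.07 and 3.79, 2.99 and 3.83, and 1.92 and 2.55 in replicates 1 and 2. The site at 8157 bases upstream held an E-box covered by footprints in both libraries. At 13687 bases the site held 2 E-boxes, of which 1 was covered in replicate 2 only. Nr1d2 had no shared distal site in 135 kb of window, and Dbp had 3.

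In 2 clock genes, Nr1d1 and Per1, a site inside the gene stood above the promoter in replicate 2 but not in replicate 1. The Nr1d1 intron site (chr11:98773761-98774200, 1353 bases into the gene) had a height of 5.78 beside a start peak of 6.02 in replicate 1, and of 7.53 beside 6.22 in replicate 2. It held 3 E-boxes, 1177, 1457 and 1472 bases into the gene, and a D-box at 1250 bases. Footprints of both libraries covered the E-boxes at 1177 and 1457 bases, footprints of replicate 2 the one at 1472 bases, and none the D-box. The Per1 intron site (chr11:69096981-69097260, 1903 bases into the gene) had 4.002 beside 5.49 in replicate 1 and 6.19 beside 6.11 in replicate 2. It held the only CRE word (TGACGTCA, the element read by CREB) in the shared own start and distal sites of the 10 genes, at chr11:69097202-69097209. The CRE counted as covered in both libraries only through the extension of footprints by 5 bases. The footprints themselves, at 69097207-69097213 in replicate 1 and 69097199-69097205 in replicate 2, each reached part of the word and did not overlap each other. An internal site stood above the strongest start peak for 0 clock genes in replicate 1 and for these 2 in replicate 2, where the share of all genes with start peaks was 6.52% and 7.2%. No clock gene had the internal site higher in both animals.

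Neighbouring genes held the highest peak of some windows, beyond the Clock window and Tmem165. In replicate 1 the highest peak of the Per3 window was at the start of Vamp3, a vesicle fusion protein gene (6.18, and 4.96 in replicate 2). That of the Dbp window was at the start shared by Rpl18, a ribosomal protein gene, and Sphk2, a sphingosine kinase gene (5.10, and 5.22 in replicate 2). In replicate 2 the highest peak of the Nr1d2 window was at the start of Rpl15, a ribosomal protein gene, and Nkiras1 (5.19, and 4.48 in replicate 1).

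Of the 38 sites found in 1 library, 12 were in replicate 1 and 26 in replicate 2. Their median heights were 1.11 and 0.915, under the median of start peaks in either library. Bases at a deposited false discovery rate of at most 0.05 were present in the other library at 11 of the 12 and at 20 of the 26, and a peak of its longer list at 5 and 15. In the longer lists, windows held 155 and 176 peaks in place of 114 and 128, and the strongest start height was the same for 10 of 10 genes in each library.

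Heights of the 97 shared sites went together in the 2 animals, with a Spearman coefficient of 0.946 across sites, against 0.935 over all 31612 shared sites. Pearson's coefficient of log10 heights was 0.951, against 0.940. Sites are not independent replicates, and all share the same pair of libraries. For the comparison of the animals, each library was divided by its median height at shared sites, and the log2 ratio of replicate 2 over replicate 1 was taken. The median of this scaled ratio was 0.030 at clock gene sites and 0.028 at all shared sites, whose SD was 0.32. At the clock genes' own start sites the median was 0.19, and 16 of 18 were above 0, against 55.3% of all shared start sites. Tall sites of the whole genome leaned the same way: the 6487 shared sites with a mean height over 3 had a median of 0.11, with 69.2% above 0. Own start sites were mostly of that size, with 13 of 18 over 3.

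**Figure D3:**
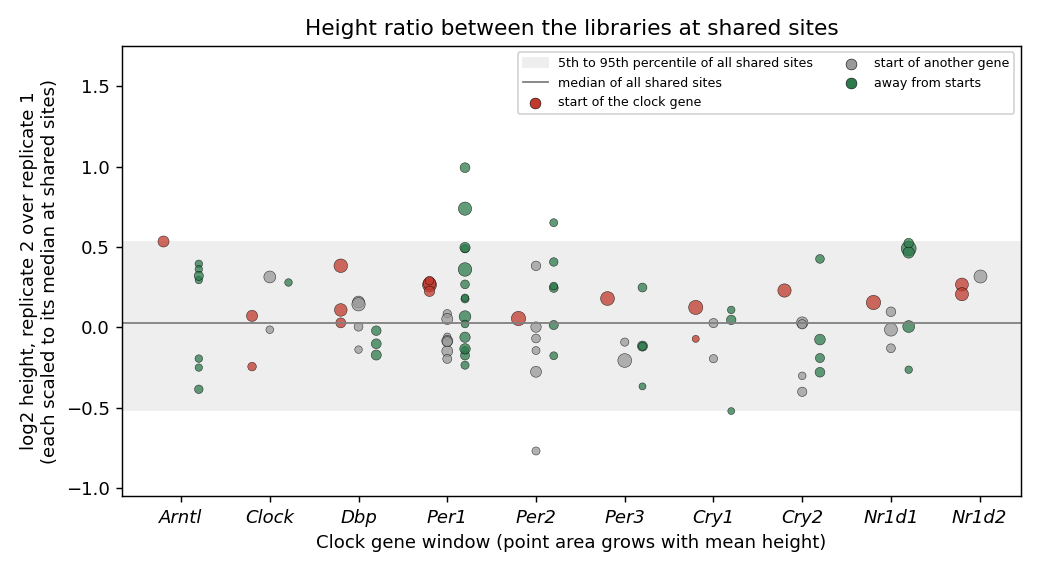
Scaled log2 ratio of replicate 2 over replicate 1 at the 97 shared sites of the clock gene windows, 1 point a site with an area that grows with mean height. The grey band spans the 5th to 95th percentile of all shared sites (-0.51 to 0.53), with 4 points above it and 2 below.

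Of the 97 sites, 4 lay above the 95th percentile of all shared sites and 2 below the 5th, where each tail holds 5% of all sites. The 4 were a distal site 23683 bases from the Per1 start (1.69 and 3.12, scaled log2 ratio 0.99), the Per1 intron site with the CRE (0.74), a Per2 intron site 13073 bases into the gene (0.65) and the Arntl start (0.53). The 2 were the start of Erfe in the Per2 window (-0.77) and a low Cry1 intron site (-0.52). Among sites with a mean height over 3, the Per1 intron site ranked at percentile 99.7, the Arntl start at 97.9, the Nr1d1 intron site at 96.7 and the Nr1d1 site 11727 bases upstream at 95.7, where 5.01% of such sites lie above percentile 95. Such ratios between 2 animals have no replicate check.

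Footprints were somewhat denser in the clock gene sites than in all sites. The peaks of the 10 windows held 344 footprints in replicate 1 and 396 in replicate 2, which is 12.7 per kb in each, against 11.2 per kb of all peaks in each library. At own start peaks the density was 14.2 and 15.4 per kb, against 11.3 and 11.6 for all start peaks. The strongest start peak of each gene had 17.3 and 20.6 per kb, and all start peaks above percentile 90 had 18.7 and 19.0, so the clock gene starts were close to starts of like height. At least 1 footprint was present in 97 of 114 clock gene peaks in replicate 1 (85.1%, against 84.2% of all peaks) and in 108 of 128 in replicate 2 (84.4%, against 83.5%). In own start sites 76.3% of replicate 1 footprints overlapped one of replicate 2, against 60.9% over all shared start sites. For replicate 2 footprints the shares were 69.6% and 59.6%. These references take in start sites of every height, and the overlap at starts of like height was not computed.

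The clock words were found in most of the clock genes, and the E-box was the one that footprints covered most often. Shared sites at own starts or distal held 17 E-boxes. Footprints covered 11 of them in replicate 1, 12 in replicate 2 and 9 in both, where 22.1% of single E-boxes in all shared sites were covered in both. That share is over sites of every height. Of common promoter words in the same clock gene sites, 33 of 59 GC boxes (GGGCGG) and 12 of 53 CCAAT words were covered in both. Frequent coverage was thus not particular to the E-box. Of 9 E′-boxes, 3 were covered in both libraries, against 9.8% of single E′-boxes. Of 5 D-boxes, 1 was covered in both, against 9.39%, and of 5 RREs, 1, against 7.16%. In footprints of all shared sites in the windows, 2.91% in replicate 1 and 3.13% in replicate 2 held an E-box, against 0.928% and 0.886% of footprints in all shared sites.

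By gene, 6 of 10 (Dbp, Per1, Cry1, Cry2, Nr1d1 and Nr1d2) had an E-box covered by footprints of both libraries at a start or inside the gene, against 4.1% of genes with start peaks in both libraries. For the E′-box, Dbp, Per2 and Cry2 had one, against 1.05%. Either word was covered in 7 of 10, against 5.04%: in 6 of 7 repressors and, among the activators, in Dbp but not in Arntl or Clock. The repressor without one was Per3. These gene counts rest on the extension of footprints by 5 bases. The counted E-boxes of Dbp, Cry2 and Nr1d2 lay partly outside the footprint itself in at least 1 library. So did the counted E′-boxes of Dbp, Per2 and Cry2. A D-box lay in a shared site of Per2, Per3, Nr1d1 and Nr1d2, all repressors, against 1.31% of genes, and was covered in both libraries in Nr1d2, against 0.178%. An RRE lay in a shared site of the 3 activators and of Cry2, against 8.72%, and was covered in both libraries in Cry2 alone, against 0.697%. The counted D-box of Nr1d2 and RRE of Cry2 also lay partly outside the replicate 1 footprint itself. The clock genes had a median of 3.5 shared sites at their starts or inside them. Protein-coding genes with start peaks in both libraries had a median of 1, so the clock genes also offered more sequence.

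**Figure D4:**
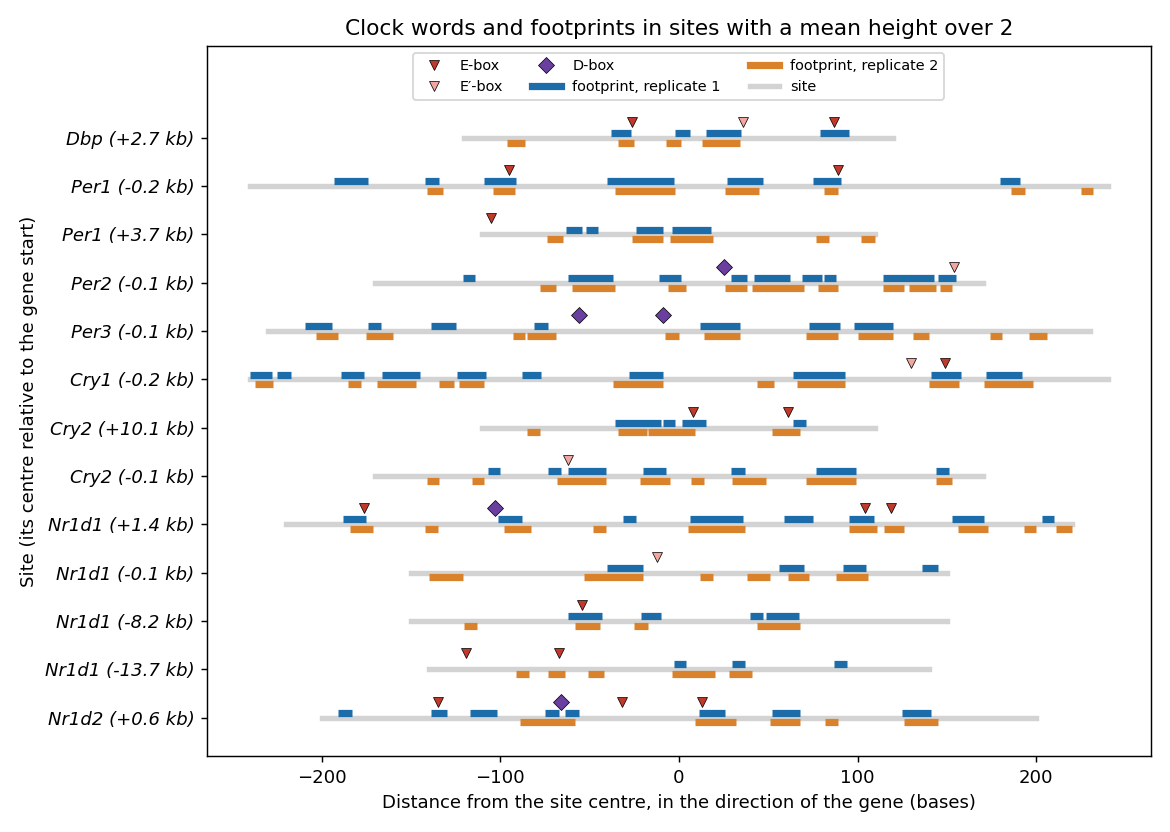
Clock words (markers) and footprints (blue for replicate 1, orange for replicate 2) along the shared own start and distal sites that hold an E-box, E′-box or D-box and have a mean height over 2, by distance from the site's centre in bases along the gene. Both E-boxes of the Per1 promoter site and 2 of the 3 E-boxes of the Nr1d1 intron site lie at footprints of both libraries.

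Windows of fixed length took the width and number of sites out of the count. Within the 300 bases centred on each of the 18 own start sites, 4 held an E-box, against 9.56% of shared start sites, 6 an E′-box, against 5.64%, and 3 a D-box, against 0.573%. An RRE was in 2, against 4.08%. The common promoter word CCAAT was in 14 of 18, against 32.7%, and the GC box GGGCGG in 12 of 18, against 67.6%, while the CRE (3.02% of all) and the AP-1 word (TGACTCA or TGAGTCA, 3.73% of all) were in 0. Of the 13 own start sites with a mean height over 3, 4 held an E-box, against 11.6% of all such start sites, 4 an E′-box, against 5.76%, 3 a D-box, against 0.597%, and 10 the CCAAT word, against 44.6%. Among the 48 shared distal sites, 4 held an E-box, against 6.05%, 2 an E′-box, against 5.5%, 1 a D-box, against 1.34%, 4 an RRE, against 7.25%, and 3 the AP-1 word, against 12.5%. All words were searched on both strands, a palindrome such as CACGTG was counted once, and no clock word of these sites overlapped another.

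RefSeq promoters on the same assembly, from 250 bases before to 50 after a start, were matched for 9 of 10 clock genes, with 13 promoters. The E-box was in those of Cry1 and Per1, against 7.15% of all promoters, the E′-box in those of Cry1, Cry2 and Nr1d1, against 4.68%, the D-box in that of Per3, against 1.59%, and the RRE in one of Arntl, against 6.45%. Common promoter words were frequent too: 11 of the 13 promoters held the GC box, against 35.7%, and 10 the CCAAT word, against 37.4%. The references are over all promoters, open or not. No match in such a window says only that these letters are not in it.

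A further 21 genes tied to the clock, among them the ROR receptors, the kinases and ubiquitin ligases that act on PER and CRY, and output genes, all had a start peak in both libraries, against 56.2% of protein-coding genes. Their starts were not as tall as those of the core genes. Above percentile 90 in both libraries were 7 of 21, against 8.05% of protein-coding genes, and the median percentile was 67.8 in replicate 1 and 70.8 in replicate 2. All protein-coding genes with start peaks in both libraries had medians of 69.3 and 70.6. The 5 highest by mean percentile were Btrc, which targets PER proteins for degradation (99.2 ± 0.015, SD, n = 2), Csnk1d, the kinase that marks PER (98.9 ± 0.53), Usp2, a deubiquitinase (98.0 ± 0.66), Wee1, a cell cycle kinase under clock control (96.3 ± 1.16), and Nampt, an enzyme of NAD synthesis (96.1 ± 0.62). Npas2 and Arntl2, the paralogs of Clock and Arntl, had percentiles of 38.7 and 22.2, and of 41.5 and 42.5, below their counterparts in both libraries. Both paralogs were singled out after their values were seen.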

How the data were processed

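DNase-seq libraries from the bladders of 2 male mice were used, replicate 1 and replicate 2. Per the labels and the deposited text, the authors made all lists per library on mm10, without pooling. The aligner was not given in the sources used here, nor were the callers. The deposited peak height is a signal value with no stated scale, and depth is unknown. The deposited per-base FDR values are adjusted p-values listed up to 0.05; the deposited footprint lists carry 1 constant, 0.01, which was read as a p-value or FDR limit. The reference is C57BL/6J, while reads come from a hybrid.

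Peaks of the shorter list (every peak holds bases at an FDR of at most 0.001; the longer list, 0.05) were assigned to genes of GENCODE M21 with Python 3.11.15, pandas 2.3.3 and numpy 2.4.6, and sequence was read with pysam 0.24.0. Positions match GRCm38.p6, and 0 peaks ran past a chromosome end. Peaks of the 2 libraries that overlapped by at least 1 base were merged into a site. Internal and distal sites overlap no start window of 500 bases on either side. Scripts were tested on simulated data. No test between groups was possible with 1 group of 2 libraries; shares of all genes, sites or promoters stand beside each count. Named genes are the 10 clock genes, the 5 highest of 21 other clock genes and any without a start peak, and genes whose start holds a window's highest peak, beside the marker lists. Npas2, Arntl2, Erfe and Gm7467 fall outside this rule and were named after their values were seen. Gene, word and marker lists were chosen with earlier results of these data known. Alternatives were the longer list, the stronger 50% of peaks, other windows and overlaps, other scalings, and leaving out a library.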

Additional observations from a re-analysis of the deposited data

How the results depend on the processing

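Of 39 alternative values, 27 stayed within the spread of the libraries (for the library ratio, of the sites) or, for counts, within 1.5 times, and 12 moved further. All 10 clock genes kept a start peak in both libraries under every alternative run for that count; the 21 other clock genes fell to 18 with the stronger 50% of peaks (alternatives for these were chosen after seeing the data). Activators minus repressors was -14.4 points, and -22.0 with the stronger 50% of peaks, -7.89 when ranked among all peaks and -21.0 without Dbp; it ranged from -17.6 to -11.3 with 1 library left out. Shared distal sites averaged 4.8 per gene, and 6.4 with the longer list, 2.9 with the stronger 50%, 2.8 within 10 kb, 7.3 within 100 kb and 3.5 at 50% overlap, while single libraries gave 5.6 to 6.9. Footprints per kb were 12.7, and 10.6 with the longer list, 14.6 with the stronger 50% and 13.2 when 1 shared base sufficed; single libraries gave 12.66 to 12.73. The median scaled log2 ratio of the libraries, 0.030, turned sign to -0.080 with heights as deposited and was 0 with heights matched by rank, changes smaller than its SD across sites. E-boxes in footprints, summed over libraries, were 23, and 16 without extension. The absolute depth is unknown, so no counting interval was given. No paired analysis was possible because there is 1 group.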
